A study of Mus musculus with 16 samples.

Results

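Early B-cell development was followed by way of 9 genes in 16 bulk RNA-seq libraries: Rag1, Rag2, Vpreb1, Igll1, Vpreb3, Cd79a, Cd79b, Pax5 and Spib. They were taken by symbol, and all 9 were found among the 20056 gene symbols of the deposited table. The libraries came from sorted osteoblasts (OBs) and sorted mesenchymal stem cells (MSCs) of miR-9-1-deficient mice, which carry a CRISPR/Cas9 edit of that microRNA locus, and of wild-type mice. Each of the 4 groups, deficient MSC, wild-type MSC, deficient OB and wild-type OB, held 4 libraries. Deficient mice are lettered E to H and wild-type mice A to D, and the same letter stands for the MSC and OB library that carry the same animal number. The question put was whether this microRNA has a role in the marrow niche of lymphocyte formation. The labels give no sort gate, sex, age, strain or size of the edited deletion.

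B cells form in the bone marrow beside stromal cells that supply growth factors and chemokines. A progenitor committed by the transcription factors E2A, EBF1 and PAX5 cuts and joins its immunoglobulin gene segments with the RAG recombinase. It then displays a trial heavy chain with a surrogate light chain and the CD79 signalling pair, the pre-B-cell receptor. Most of these genes mark lymphoid cells rather than stroma, and Spib is also used by plasmacytoid dendritic cells. In a bulk library, more B-lineage cells and more RNA per such cell cannot be told apart.

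The microRNA is shown because its locus was edited, and the gene starts because the 9 genes share B-lineage regulators. The mature 5p product of the locus, the only one searched here, is given with its seed, bases 2 to 8, in capitals (RefSeq, GRCm38.p6, chr3:88215613-88215635, plus strand).
mmu-miR-9-5p: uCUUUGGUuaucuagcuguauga
The 3′ UTRs of the 9 genes were searched for the 2 kinds of seed match, ACCAAAG and CCAAAGA. A match was found in 1 of 9 genes, against 21.3% of 16728 genes searched the same way. That gene was Pax5, with a single CCAAAGA (capitals) 6408 bases into a UTR of 6749 bases on chromosome 4.
Pax5 site: agtgccaatttgCCAAAGAtgttgg

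Promoter windows of 300 bases, 250 before to 50 after the start, were given by RefSeq for 8 of the 9 genes (GRCm38.p6). Both strands were searched for 4 motifs of B-lineage factors, the EBF core CCCNNGGG, the E2A site CAGGTG, the ETS site GAGGAA and the Ikaros site TGGGAA. The E2A site stood in 4 of 8 windows, against 20.2% of 32851 promoters. The 4 that hold it are shown, with every match of the 4 motifs in capitals: Rag1 (chr2:101649483-101649782, minus strand), Vpreb1 (chr16:16869206-16869505, minus strand), Igll1 (chr16:16863936-16864235, minus strand) and Cd79a (chr7:24897247-24897546, plus strand).
Rag1: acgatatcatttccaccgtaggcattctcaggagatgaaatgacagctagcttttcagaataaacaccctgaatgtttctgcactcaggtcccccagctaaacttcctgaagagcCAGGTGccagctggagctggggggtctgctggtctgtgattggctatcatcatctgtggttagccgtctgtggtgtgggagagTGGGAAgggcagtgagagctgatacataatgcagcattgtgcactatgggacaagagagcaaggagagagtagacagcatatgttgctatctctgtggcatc
Vpreb1: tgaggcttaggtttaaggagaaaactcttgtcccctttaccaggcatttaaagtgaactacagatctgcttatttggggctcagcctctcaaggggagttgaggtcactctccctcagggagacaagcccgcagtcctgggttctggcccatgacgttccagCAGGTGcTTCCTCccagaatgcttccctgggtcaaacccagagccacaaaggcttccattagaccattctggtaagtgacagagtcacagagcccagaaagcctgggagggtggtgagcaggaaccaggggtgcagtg
Igll1: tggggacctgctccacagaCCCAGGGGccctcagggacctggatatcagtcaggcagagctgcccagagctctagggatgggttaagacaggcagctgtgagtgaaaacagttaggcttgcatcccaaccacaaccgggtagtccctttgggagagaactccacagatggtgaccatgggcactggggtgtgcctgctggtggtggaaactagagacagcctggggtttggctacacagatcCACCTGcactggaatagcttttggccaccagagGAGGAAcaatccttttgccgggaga
Cd79a: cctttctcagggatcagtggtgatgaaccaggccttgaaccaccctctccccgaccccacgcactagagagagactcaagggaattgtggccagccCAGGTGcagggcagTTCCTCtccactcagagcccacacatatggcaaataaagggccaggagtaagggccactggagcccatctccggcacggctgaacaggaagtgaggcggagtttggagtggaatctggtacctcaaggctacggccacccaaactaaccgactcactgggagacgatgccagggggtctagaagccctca
The first base of CAGGTG lay at -135 in Rag1, -88 in Vpreb1, -8 in Igll1 (as CACCTG, the other strand) and -154 in Cd79a, counted from the start. GAGGAA stood in 4 of 8 windows (28.3% of all promoters), those of Vpreb1, Igll1, Cd79a and Rag2, at times on the other strand as TTCCTC. The EBF core stood in 2 of 8 (13.7%), Igll1 and Spib, and overlapped itself in Spib. TGGGAA stood in 1 of 8 (25.6%), that of Rag1. A match describes letters and is no evidence of binding.

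Depth was 10148197 to 14246986 reads in MSC libraries and 15543693 to 18962771 in OB libraries. A gene with 0 reads in a library could have had up to 3, which on the normalized scale is 3.52 to 4.51 for MSC libraries and 1.95 to 2.36 for OB libraries. Both limits allow for counting error alone. The targeted Mir9-1 was listed at 0 in all 8 MSC libraries, so its loss could not be seen there. In OBs it held 0, 1.95, 0 and 0 normalized counts in deficient mice E to H, against 5.50, 10.4, 0 and 2.94 in wild-type mice A to D. The labelled cell types were checked against marker lists. In wild-type mice, 9 of 12 osteoblast markers were lower in OB than in MSC libraries, while 12 of 12 blood progenitor markers and 9 of 12 pan-leukocyte markers were higher; over all genes, 35.5% were lower and 34.4% higher. The Y-linked gene Ddx3y lay at 1848 to 3355 in the MSC libraries of mice E, F and A and at 29.8 to 78.1 in the other 5. In the OB libraries Ddx3y lay at 649 to 1939 with Xist at 3720 to 8053, so each held both. The OB libraries of B, C, D, G and H held 649 to 817 of Ddx3y, although the MSC libraries of the same numbers were low. Xist was at 291, 392 and 327 in the MSC libraries of A, E and F, against 4652, 3720 and 3974 in the OB libraries of the same numbers. By Ddx3y for B, C, D, G and H, and by Xist for A, E and F, the OB libraries go against RNA from 1 mouse alone. Whether the 4 OB libraries of a group are independent is thus not established.

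**Figure D1:**
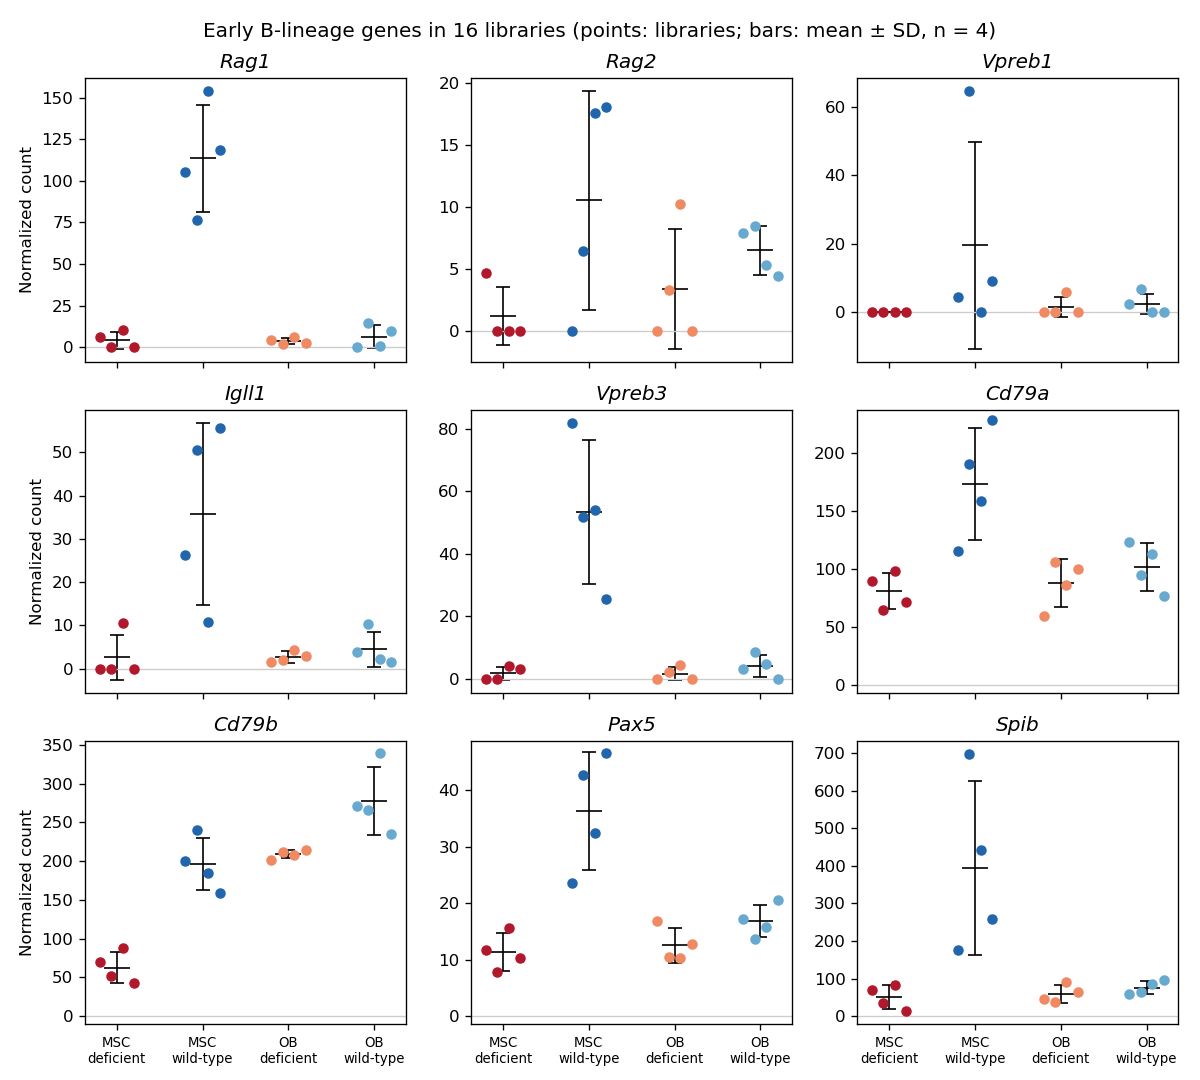
Normalized count (vertical axis, linear, own scale for each gene) of the 9 genes in every library, by group along the horizontal axis. Points are libraries in letter order and bars are the mean ± SD of 4 libraries. In MSCs the deficient libraries sit below the wild-type ones for 7 genes, and in OBs Cd79b alone separates.

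In MSCs, 7 of the 9 genes lay lower in every deficient library than in any wild-type library, and 4 of them, Rag1, Vpreb3, Cd79b and Spib, passed the test across all genes. Over the table, 6.10% of genes lay lower without overlap and 0.561% were called lower. Of the 7, Rag1, Igll1 and Vpreb3 passed the filter on low values only through wild-type libraries, and the 4 calls fell to 0 when any of 7 single libraries was left out. Rag1 and Vpreb3 were almost absent from deficient MSC libraries, at 3.59% and 3.21% of the wild-type mean. Spib stood at 12.9%, Cd79b at 32.0% and Cd79a at 46.7% of the wild-type mean. In OBs no gene passed. Values are normalized counts, and a gene was called at an adjusted p under 0.05 from limma on log2(normalized count + 1).

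Rag1 encodes the catalytic subunit of the V(D)J recombinase (chromosome 2, 101638282 to 101649501, minus strand, GRCm38/mm10). It held 5.87, 0, 10.5 and 0 normalized counts in deficient MSC libraries E to H, against 105, 76.4, 154 and 119 in wild-type libraries A to D. Reads were 5, 0, 8 and 0 in deficient MSCs, against 76, 59, 114 and 79 in wild-type MSCs. The wild-type libraries were all high and the groups did not overlap, with a log2 fold change of -5.22 ± 0.88 (SE, limma adjusted p = 0.0285).
Rag2 encodes the partner subunit, and its gene lies 5752 bases from Rag1 in the opposite orientation. It held 4.70, 0, 0 and 0 in deficient MSCs, against 0, 6.47, 17.6 and 18.0 in wild-type MSCs. Library A of the wild-type group was at 0, so the groups overlapped, and the exact permutation p was 0.143 (two-sided). Rag2 was below the filter of 10 or more in at least 4 libraries.
Both genes lie within the annotated span of B230118H07Rik, a protein-coding gene that shares the strand of Rag1 and runs opposite to Rag2. It averaged 158 ± 90.9 in deficient MSCs and 196 ± 79.0 in wild-type MSCs (SD, n = 4 each). Its log2 fold change was -0.50 ± 0.49 (limma adjusted p = 0.565). Whether strand was used in counting is not given in the sources used here, so the assignment of reads among these 3 genes is uncertain.

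Vpreb1 and Igll1 encode the 2 parts of the surrogate light chain, and their genes lie 4417 bases apart on chromosome 16. Vpreb1 held 0 in all 4 deficient MSC libraries, against 4.16, 64.7, 0 and 9.02 in wild-type libraries A to D. Mouse B held 50 of the 59 wild-type reads, and C had none. With each deficient library set to the limit of 3 reads, the mean was at least 4.96-fold lower in deficient MSCs, a value that rests on mouse B (exact permutation p = 0.143, two-sided). The related Vpreb2 is 97.9% identical over 429 coding bases, so reads of the pair may be split. Vpreb1 also overlaps Top3b by 108 bases on the opposite strand.
Igll1 held 0, 0, 10.5 and 0 in deficient MSCs, against 26.4, 50.5, 10.8 and 55.6 in wild-type MSCs. The groups touched closely: mouse G of the deficient group and mouse C of the wild-type group each had 8 reads, and only the scaling separated them. The log2 fold change was -4.08 ± 1.12 and did not pass (limma adjusted p = 0.0860).
Vpreb3, which encodes a protein that associates with immunoglobulin chains inside the cell, held 0, 0, 3.92 and 2.92 in deficient MSCs. Wild-type MSCs held 81.9, 51.8, 54.0 and 25.5. No deficient library held more than 3 reads, and the log2 fold change was -4.58 ± 0.88 (limma adjusted p = 0.0410).

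Cd79a and Cd79b encode the signalling pair of the B-cell receptor, and both were read in every library. Cd79a held 89.2, 64.4, 98.0 and 71.6 in deficient MSCs, against 115, 190, 158 and 228 in wild-type MSCs. The groups did not overlap, but the change of -1.06 ± 0.29 did not pass (limma adjusted p = 0.0857).
Cd79b held 69.3, 51.5, 87.6 and 42.4 in deficient MSCs, against 200, 240, 185 and 159 in wild-type MSCs. Every deficient library lay below 88, and the change was -1.67 ± 0.30 (limma adjusted p = 0.0373).
The Cd79b count per Cd79a count in the same library was 0.776, 0.8, 0.893 and 0.592 in deficient MSCs, and 1.73, 1.26, 1.17 and 0.697 in wild-type MSCs. Mouse D kept these 2 ranges from separating. In OBs the ratio was 2.0 to 3.40 in deficient and 2.20 to 3.08 in wild-type libraries, above every MSC library.

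Pax5 encodes the factor that holds cells to the B lineage. It held 11.7, 7.73, 15.7 and 10.2 in deficient MSCs, against 23.6, 42.7, 32.4 and 46.6 in wild-type MSCs. The groups did not overlap, with a change of -1.59 ± 0.55 that did not pass (limma adjusted p = 0.131).
Spib encodes an ETS factor of B cells and plasmacytoid dendritic cells. It held 70.4, 36.1, 82.4 and 14.6 in deficient MSCs, against 175, 698, 443 and 258 in wild-type MSCs. Mouse B was highest and the wild-type spread was wide, and the change was -3.0 ± 0.56 (limma adjusted p = 0.0373).

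Of the 9 genes, 7 passed the filter in MSCs, and 3 of these, Rag1, Igll1 and Vpreb3, passed it only through the wild-type group, with 1, 1 and 0 deficient libraries at 10 or more. For these 3 a difference was built into passing, and Rag2 and Vpreb1 did not pass. The shares over all genes given above are of 14964 tested. The groups of these 7 did not overlap, which by itself sets the exact permutation p (two-sided) at 0.0286, the smallest for 4 against 4. That p is thus no separate support. edgeR on recovered reads called 4 genes, and DESeq2 called 6 by adding Igll1 and Cd79a. Over the 14964 genes, edgeR called 60 lower and DESeq2 508, against 84 in limma.
The calls depended on single libraries. They fell to 0 without A, B, C, D, E, G or H, and were 5 without F; over the whole table, 0 to 12 genes were called without one of the first 7 libraries and 2261 without F. The groups of all 7 did not overlap, so no log2 fold change could change sign when a library was left out. In size, Rag1 ranged from -5.87 to -4.70, and Cd79b, which passed the filter in both groups, from -1.84 to -1.50.

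**Figure D2:**
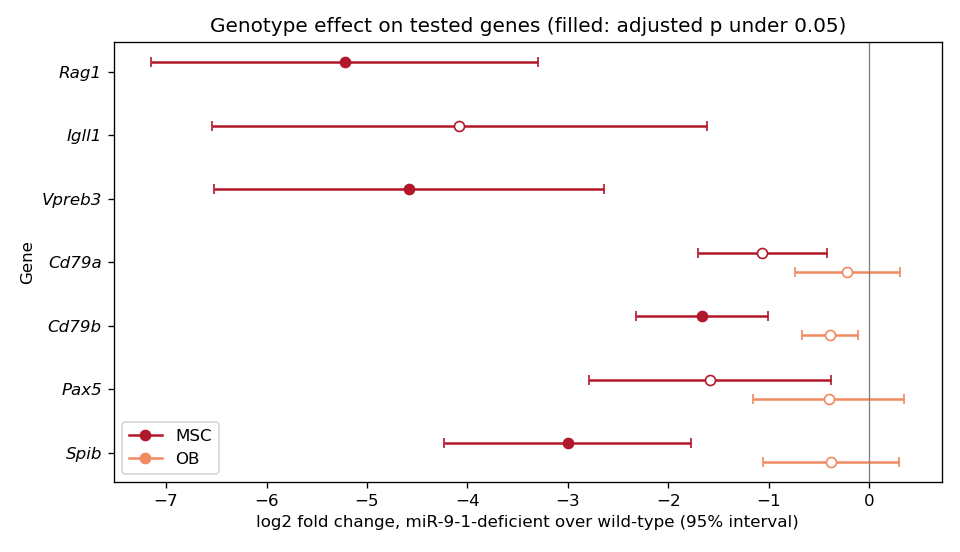
Log2 fold change, miR-9-1-deficient over wild-type, on the horizontal axis for each gene tested, with 95% intervals from limma; filled points passed an adjusted p of 0.05. The MSCs have 7 genes shown and the OBs 4. All 11 estimates lie below 0, the MSC ones from -5.22 to -1.06 and the OB ones from -0.40 to -0.22. Rag1, Igll1 and Vpreb3 passed the filter only through wild-type MSC libraries, so a negative MSC value was built in for them. Over all genes, 7881 of 14964 MSC estimates and 7990 of 14229 OB estimates lie below 0.

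In OBs the same genes lay close together in both genotypes. Cd79b was the one gene whose groups did not overlap, at 202, 212, 208 and 215 in deficient OBs and 271, 265, 340 and 235 in wild-type OBs. The deficient libraries fell in a narrow band just below the lowest wild-type value. Its change of -0.39 ± 0.12 did not pass (limma adjusted p = 0.379). Its exact permutation p of 0.0286 (two-sided) follows from the lack of overlap and adds nothing to it. That 1 gene compares with 2.99% of the 14229 genes tested whose groups did not overlap in this direction, and 0.0281% of genes were called in either direction.
Cd79a held 59.5, 106, 85.5 and 100 in deficient OBs, against 123, 94.3, 112 and 76.4 in wild-type OBs. Spib held 46.3, 37.8, 92.1 and 63.1 in deficient OBs, against 58.9, 63.1, 84.4 and 95.4 in wild-type OBs. Pax5 held 16.9, 10.4, 10.2 and 12.8 in deficient OBs, against 17.3, 13.7, 15.8 and 20.6 in wild-type OBs. These 3 genes overlapped between genotypes, with log2 fold changes of -0.22, -0.38 and -0.40 and 95% intervals that held 0.
The other 5 genes were below the filter in OBs. Rag1 held 4.41, 1.95, 5.85 and 2.25 in deficient OBs, against 0, 14.3, 0.753 and 9.54 in wild-type OBs. Rag2 held 0, 3.26, 10.2 and 0 in deficient OBs, against 7.86, 8.45, 5.27 and 4.40 in wild-type OBs. Neither recombinase gene separated the genotypes, and both stood at or near the limit of 3 reads in several libraries. Vpreb1, Vpreb3 and Igll1 each lay between 0 and 5.85 in deficient OBs and between 0 and 10.4 in wild-type OBs. The exact permutation p of the 5 genes lay between 0.171 and 0.943 (two-sided). A gene that did not pass may still differ at this depth.

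Levels of different genes were set side by side per kilobase of the longest annotated transcript. In wild-type MSCs the order of normalized count per kilobase was Spib (141 ± 83.1), Cd79b (137 ± 23.4), Cd79a (119 ± 33.0), Vpreb3 (73.1 ± 31.6), Igll1 (41.2 ± 24.1), Vpreb1 (25.4 ± 39.7), Rag1 (17.2 ± 4.87), Pax5 (4.54 ± 1.30) and Rag2 (3.07 ± 2.57; SD, n = 4 each). Neighbours in this order overlapped within 1 SD of each mean, other than Rag1 and Pax5. In deficient MSCs, Cd79a led with 55.5 ± 10.6 per kilobase, then Cd79b with 43.8 ± 14.0 and Spib with 18.2 ± 11.2, and the other 6 genes lay between 0 and 3.0. In OBs, Cd79b was highest, at 146 ± 3.97 per kilobase in deficient and 194 ± 30.9 in wild-type libraries.

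**Figure D3:**
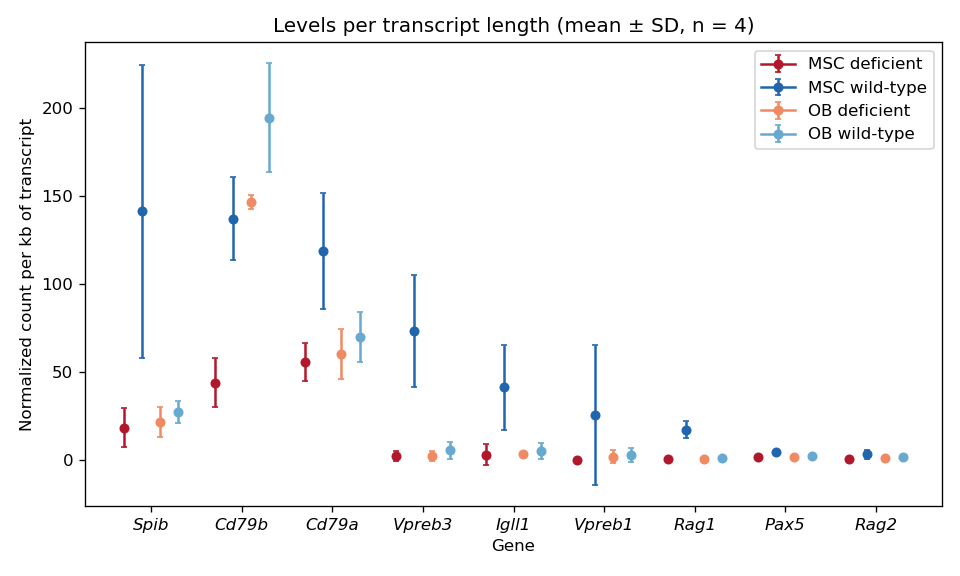
Normalized count per kilobase of the longest annotated transcript (vertical axis, linear) for each gene, in order of the wild-type MSC mean; points and bars are the mean ± SD of 4 libraries. Spib, Cd79b and Cd79a lead in wild-type MSCs, and Cd79b has its highest mean in wild-type OBs (194 ± 30.9).

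Between cell types, the genes did not move as 1 block. In wild-type mice 6 genes were lower in OB than in MSC libraries and Cd79b was higher. The lower genes were Rag1 (log2 fold change -4.76), Vpreb3 (-3.71), Igll1 (-2.76), Spib (-2.20), Pax5 (-1.03) and Cd79a (-0.74), and Cd79b changed by 0.50 (limma adjusted p 0.000379 to 0.0352). Cd79b lay at 235 to 340 in wild-type OBs and 159 to 240 in wild-type MSCs, so it overlapped, as did Cd79a, while the other 5 genes did not. Lower calls were common here, at 35.5% of all genes tested, and 4841 of the 14696 genes tested were lower without overlap. Rag1, Igll1 and Vpreb3 passed the filter only through the MSC libraries, with 1, 1 and 0 OB libraries at 10 or more, so their direction was largely set by the filter. In deficient mice 4 genes could be tested, and Cd79b alone was called, 1.78 ± 0.26 higher in OBs on the log2 scale (limma adjusted p = 0.000332), where 59.6% of the 14692 genes tested were called in either direction. The Cd79b level was 202 to 215 in deficient OBs and 42.4 to 87.6 in deficient MSCs.
With the animal number as a replicate block, which for OBs may not stand for 1 mouse, the count in wild-type mice was 6, and Pax5 was the gene lost (limma adjusted p = 0.0719). It was 4 without MSC mouse B, without MSC mouse D, and with mice A to C alone, whose numbers begin with 29.

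The genotype effect in OBs minus that in MSCs was 0.85 ± 0.37 for Cd79a, 1.27 ± 0.30 for Cd79b, 2.62 ± 0.70 for Spib and 1.18 ± 0.54 for Pax5. Rag1, Igll1 and Vpreb3, at 5.31 ± 1.32, 3.70 ± 1.20 and 3.64 ± 1.20, reached the filter essentially through wild-type MSCs alone, so a positive value was built in for these 3. None passed in limma, where the adjusted p lay between 0.223 and 0.419 and the unadjusted p between 0.000659 and 0.0447. Calls were also rare across the table, at 0.00643% of 15556 genes in this direction. DESeq2 called 2 of the 7, Cd79b (adjusted p = 0.0110) and Spib (0.0231), while edgeR called 0. Over the 15556 genes, DESeq2 called 60 in this direction and edgeR 1. The genotype difference seen in MSCs and not called in OBs was therefore not shown by limma to differ between the cell types.

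Other genes of early B-cell development were counted from a list of 51, of which 44 were in the table and 43 were tested in MSCs. No member passed in either direction, 34 of 43 estimates were negative, and the median log2 fold change was -0.53, against -0.03 over all genes. A negative median was not particular to this list. It was -0.84 for the NK and innate lymphoid, -0.70 for the plasma cell and -0.61 for the neutrophil list. For the macrophage and monocyte, T cell, blood progenitor and erythroid lists it was -0.35, -0.32, -0.28 and 0.05. Of the 43, 14 were lower without overlap, as were 6.10% of all genes.
Dntt, the terminal transferase that adds bases at V(D)J joins, held 16.4, 32.2, 27.5 and 0 in deficient MSCs, against 47.2, 114, 43.2 and 110 in wild-type MSCs. It separated the genotypes in MSCs without passing (limma adjusted p = 0.153), and it overlapped in OBs.
Pou2af1, a coactivator of octamer-binding factors, had a change of -1.29 ± 0.28 in MSCs (limma adjusted p = 0.0553). Ms4a1, which encodes CD20, had -1.63 ± 0.45, and the adaptor gene Blnk had -1.92 ± 0.55 (limma adjusted p = 0.0872 and 0.0923). Ebf1, Il7r and Lef1 had 0.35 ± 0.20, 0.01 ± 0.76 and -0.52 ± 0.31 and did not pass either (limma adjusted p 0.327 to 0.993). Ebf1, a B-lineage factor also used by stromal cells, averaged 2484 ± 612 in deficient MSCs and 1938 ± 401 in wild-type MSCs (SD, n = 4 each). In OBs the list had 41 genes tested, 0 passed and a median of -0.12.

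Pan-leukocyte markers were set beside these genes in MSCs, and their part in the result was not tested. All 12 had negative estimates and none passed, with a median of -0.49, and 11 of 12 overlapped between genotypes. The list's summed level was 8316 to 14124 in deficient MSCs and 9117 to 22390 in wild-type MSCs. Ptprc, which encodes the leukocyte antigen CD45, held 784, 708, 929 and 1257 in deficient MSCs, against 1060, 2519, 1701 and 1074 in wild-type MSCs.
Set against Ptprc, the summed count of the 9 genes per 100 counts of Ptprc was 32.0, 22.6, 33.2 and 11.3 in deficient MSCs, against 69.0, 56.4, 62.0 and 85.6 in wild-type MSCs. The genotypes stayed apart on this scale, and the lowest wild-type ratio, 56.4, lay above the highest deficient one, 33.2. The sum is led by Spib, Cd79b and Cd79a, which held 698, 240 and 190 of 1420 in wild-type MSC library B. In deficient MSC library E they held 70.4, 69.3 and 89.2 of 251. In OBs the same ratio was 13.5, 14.6, 14.8 and 12.0 in deficient libraries, against 16.3, 14.5, 18.4 and 14.6 in wild-type libraries. With the mean pan-leukocyte level as a covariate, the calls in MSCs fell to 0. The log2 fold changes in that fit were -5.76 for Rag1, -4.16 for Vpreb3, -1.67 for Cd79b and -2.87 for Spib (limma adjusted p 0.0820 to 0.143). The covariate itself averaged 9.33 in deficient and 9.87 in wild-type MSCs on the log2 scale, so it was not independent of genotype. Whether leukocyte content accounts for the difference was not tested.

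**Figure D4:**
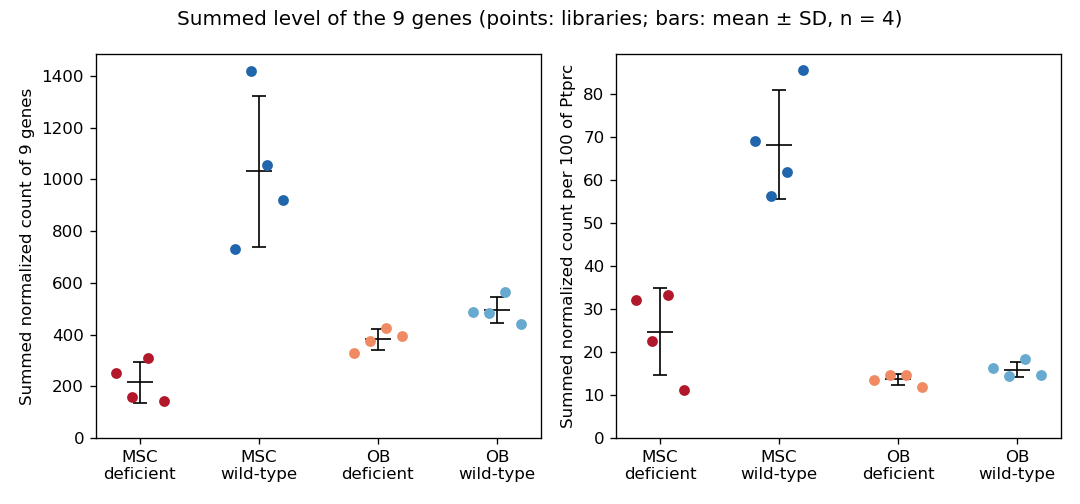
Summed normalized count of the 9 genes (left) and the same sum per 100 counts of Ptprc (right), by group, with both vertical axes starting at 0. Points are libraries and bars the mean ± SD of 4 libraries. In MSCs the deficient sums are 142 to 308 and the wild-type sums 731 to 1420. The ratio to Ptprc separates the MSC groups in the same order. Both rest mostly on the highest genes, and Spib alone holds 698 of the 1420 in wild-type mouse B.

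The plasmacytoid dendritic cell list was set beside Spib. Of its 9 genes, 7 were tested in MSCs, 0 passed, 7 had negative estimates, and the median was -3.05. Over all genes, 7881 of 14964 estimates were negative, with a median of -0.03. Klk1 passed the filter only through wild-type libraries, and Upb1 through wild-type B, C and D with deficient H. A negative estimate was thus built in for Klk1 and favoured for Upb1. The summed level of the list was 14.1 to 214 in deficient MSCs and 226 to 2486 in wild-type MSCs, and Klk1 and Klk1b27 were at 0 in all deficient MSC libraries. Klk1b27 was also at 0 in wild-type libraries A, C and D, with 17 reads in B.
Siglech, a lectin of these cells, held 0, 69.6, 74.5 and 11.7 in deficient MSCs, against 45.8, 825, 306 and 203 in wild-type MSCs. Ccr9, a chemokine receptor, held 1.17, 55.4, 48.4 and 1.46 in deficient MSCs, against 20.8, 843, 219 and 140 in wild-type MSCs. Mouse B was highest for both, as for Spib, whereas Ly6d was highest in mouse C (419, against 329 in B) and Cd79a in mouse D. A peak in mouse B was not particular to these genes. Among wild-type MSC libraries, B also had the highest summed level of the pan-leukocyte (22390), neutrophil (123054) and B-lineage defining (1853) lists. In deficient MSCs, Spib was lowest in H and Siglech was at 0 in E. The share of Spib reads that came from either cell type was not tested.

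**Figure D5:**
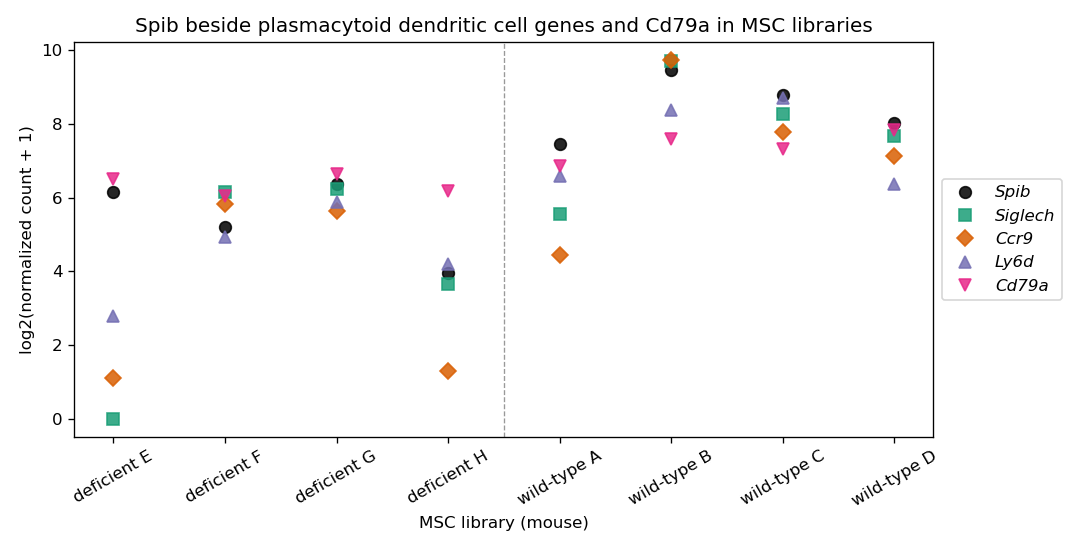
Log2(normalized count + 1) of Spib, 3 genes of the plasmacytoid dendritic cell list (Siglech, Ccr9, Ly6d) and Cd79a in the 8 MSC libraries. Deficient mice are left of the dashed line and wild-type mice right of it. In mouse B, Spib (698), Siglech (825) and Ccr9 (843) stand above Cd79a (190), all in normalized counts.

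The remaining marker lists gave few calls between genotypes. In MSCs, 0 members passed among the T cell (7 tested), NK and innate lymphoid (3), plasma cell (5), neutrophil (10), macrophage and monocyte (8), erythroid (9), blood progenitor (12) and skeletal muscle (9) lists. The B-lineage defining list, which holds Cd79a and Cd79b, had 1 of 10 lower, and that 1 was Cd79b. Of the MSC stroma and osteoblast lists, 1 of 12 and 3 of 12 were lower, where 0.561% of all genes were. Skeletal muscle markers summed to 543 to 6312 in deficient MSCs and 425 to 612 in wild-type MSCs, with H the highest. In OBs, 1 of 12 osteoblast markers was lower, where 0.00703% of all genes were, and no member of the other lists passed.
List genes at 0 throughout a group included Siglech, Klk1 and Cd300c in deficient OBs and Klk1, Klk1b27, Klrd1, Tnfrsf17 and Vpreb2 in wild-type OBs. Klre1, Ncr1 and Vpreb2 were at 0 in deficient MSCs, and Myh4 and Trat1 in wild-type MSCs. Trat1 and Pvalb were at 0 in deficient OBs, and Pvalb in wild-type OBs.

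Stromal factors that act on B-cell progenitors were read in the same MSC libraries. Of 14 tested, 2 were lower in deficient MSCs, the growth factor genes Igf1 and Ptn, and 0 were higher, where 0.561% of all genes were called lower and 0.501% higher. Igf1 held 859, 2161, 1025 and 1549 in deficient MSCs, against 4305, 3660, 3263 and 5378 in wild-type MSCs, with a change of -1.64 ± 0.27 (limma adjusted p = 0.0269). Every deficient library lay below every wild-type one.
Il7, the cytokine that early B cells of the mouse depend on, held 34.0, 27.1, 47.1 and 16.1 in deficient MSCs, against 45.8, 51.8, 75.6 and 51.1 in wild-type MSCs. Mouse G overlapped the wild-type range, and the change of -0.90 ± 0.45 did not pass (limma adjusted p = 0.255). Cxcl12, Flt3l and Kitl, which encode a chemokine and a pair of growth factors, had -0.40 ± 0.47, -0.35 ± 0.34 and 0.17 ± 0.27 and did not pass (limma adjusted p 0.565 to 0.730).

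Across the 16 libraries, the 5 genes outside the 9 whose log2 level was most like the mean of the 9 were Smox, Emb, Abhd6, Ndufa7 and Slamf9, among 14907 genes. Pearson's r was 0.88, 0.86, 0.86, 0.82 and 0.82. These libraries share cell type, genotype and depth, and over deviations from the 4 group means r was 0.35, 0.21, 0.52, 0.49 and 0.23. Slamf9, a receptor of the SLAM family, held 0, 2.58, 0 and 2.92 in deficient MSCs, against 25.0, 86.7, 43.2 and 40.6 in wild-type MSCs. Its MSC values separated as those of Rag1 did, and mouse B was highest for Slamf9. Slamf9 was picked for its likeness to a mean that includes Rag1, so such a separation was favoured by the choice. In MSCs, Slamf9 also passed the filter on low values only through wild-type libraries, so a lower deficient level was built in.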

How the data were processed

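Poly(A)-selected RNA of sorted cells was lysed in TRIzol and made into libraries with a NEBNext Ultra kit, per the labels' protocols. The authors deposited normalized counts (signal) by gene symbol. DESeq2 1.24.0 and mm10 are named per the submitters' processing notes. No source used here gives the aligner, counter or annotation. Every deposited signal value was a whole multiple of 1 step per library (100% within 0.01), so whole reads were recovered.

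The values were tested as log2(normalized count + 1), which understates changes of low genes, with limma 3.58.1 (trend) in R 4.3.3, keeping genes that reached 10 in 4 or more libraries of the fit. Benjamini-Hochberg adjustment ran over all genes tested, with 0.05 as threshold. Single genes were also tested by exact permutation of log2 values (70 relabellings, smallest two-sided p 0.0286). edgeR 4.0.16 and DESeq2 1.42.0 on recovered reads, quantile normalization, a pseudocount of 5, a filter of 50 or none, 1 fit of 16 libraries, a pan-leukocyte covariate, number series, the number as a replicate block, and each library left out in turn were the alternatives. The code was tested on simulated data. Positions and lengths come from GENCODE on GRCm38/mm10, promoters and the microRNA from RefSeq GRCm38.p6.

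Animal numbers are shared by MSC and OB libraries and are read here as naming 1 mouse each. Ddx3y goes against this reading for the OB libraries of B, C, D, G and H, and Xist for those of A, E and F. Deviations from group means correlated with r from 0.0241 to 0.285 within an animal number. For 7 of 8 numbers the own OB library gave the highest r among OB libraries of the same genotype. The 9 genes and all lists were chosen with earlier results of these data known. Named genes are the 9, fixed early B-cell and niche genes, Ptprc, list genes at 0 in a group, and the 5 most alike. Ccr9, Ly6d, Ptn, the overlapping genes, Ddx3y and Xist were named after their values were seen. Ighm and Igkc were not analysed here, some genes taken by the rule are not reported here, and 0 other columns of sample values were left out.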

Additional observations from a re-analysis of the deposited data

Results flagged for a closer look

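Among 36 gene and group combinations, 4 held a library far from the other 3 of its group. Chance gives about 1 in 20 such groups for continuous values, a rate that does not apply to 3 of these, where the other libraries are at 0 and any read stands apart. Rag2 in deficient MSCs stood at 4.70 in mouse E, with 0 in the other 3 libraries. Igll1 in deficient MSCs stood at 10.5 in mouse G, with 0 in the other 3. Vpreb1 in wild-type MSCs stood at 64.7 in mouse B, against 0 to 9.02 in the rest, and mouse B was also highest for Spib. Vpreb1 in deficient OBs stood at 5.85 in mouse G, with 0 in the other 3. All are normalized counts, and 3 of the 4 rest on 8 reads or fewer.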

How the results depend on the processing

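In the genotype comparison of MSCs the count of called genes was 4, and it stayed between 3 and 6 under quantile normalization, a pseudocount of 5, a filter of 50 or none, edgeR and DESeq2. It was 7 in 1 fit of all 16 libraries, and 0 with mice of the 29 number series (A to C and E to G), without deficient mice G and H, and with the pan-leukocyte covariate; over all settings the log2 fold change stayed within -1.84 to -1.5 for Cd79b and -3.32 to -2.51 for Spib. Leaving out single libraries gave 0 to 5. In wild-type OBs against MSCs the count was 7, and 4 with a filter of 50 or the 29 number series; leaving out single libraries gave 4 to 6. The difference of genotype effects had 0 calls, 2 with DESeq2, and 0 to 1 when single libraries were left out (1 without deficient MSC mouse F). With the replicate block the counts were 6 in wild-type mice, 1 in deficient mice and 0 for the difference, and Pax5 in wild-type mice was the one call it ended. Leave-one-out and the other settings left OBs at 0 and the deficient cell types at 1.

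Single genes reversed at small size: in the OB genotype comparison, Spib to 0.0434 without mice E and F and Cd79a to 0.0287 with the covariate. Between deficient cell types, the 29 number series gave Cd79a -0.0198 and Spib -0.124, and leaving out single libraries gave -0.00291 (MSC mouse F) to 0.308 for Pax5 and -0.0714 (MSC mouse H) to 0.734 for Spib. The cause was not tested. Depth limits Rag2, Vpreb1, Vpreb3 and Igll1, which held few reads in most libraries.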
